A study of Mus musculus with 2 samples.

Results

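Cystatins are a family of protease inhibitor proteins, and transcripts of 8 cystatin genes (Cst3, Cst6, Cst8, Cst9, Cst11, Cst12, Cst13 and Cstb) were measured by RNA sequencing in mouse material that carries the label adipose. The 8 genes were taken by name from a table of 54532 genes. The list was selected on FPKM values of these same 2 libraries, so the values are a description and nothing was tested. The samples were of 2 genotypes, wild type (WT) and a knockout of Trappc9 (KO), a gene for a subunit of the TRAPP vesicle-tethering complexes. Mice were 3 to 4 weeks old, and no treatment is named in the labels. The design text speaks of abdominal fat pads from 3 mice of each genotype, digested with collagenase into a cell pellet. By title the samples are adipose-derived stem cells, whereas the extraction label speaks of flash-frozen pads. Each genotype has 1 library; the sources used here do not say whether mice were pooled for it or how the Trappc9 allele was made.

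Cystatins of the classical kind block papain-like cysteine proteases, among them the lysosomal cathepsins, by inserting a wedge of the N-terminus and hairpin loops into the protease's active site. The first hairpin loop carries a conserved run of glutamine, any residue, valine, any residue and glycine. Cystatin C (Cst3) is secreted by nearly all cell types, cystatin B (Cstb) is a cytosolic inhibitor present in most cells, and cystatin E/M (Cst6) is best known from skin. Cst8, also called CRES for cystatin-related epididymal spermatogenic, gave its name to a subgroup expressed mainly in testis and epididymis, to which Cst11 (CRES2) and Cst12 (CRES3) belong. Cst9, or testatin, is known from the fetal gonad and the testis, and Cst13 is known from the testis.

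The loop is shown first because it separates the inhibitory from the reproductive-tract members. Each line below gives 33 bases of coding sequence from GENCODE M21 (mouse build GRCm38, or mm10), 5′ to 3′ on the gene's own strand. Capitals mark the 15 bases, or 5 codons, at the place of the loop motif.
Cst3: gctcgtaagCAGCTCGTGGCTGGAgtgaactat
Cst6: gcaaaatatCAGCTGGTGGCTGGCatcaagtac
Cstb: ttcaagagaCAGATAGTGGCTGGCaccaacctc
Cst8: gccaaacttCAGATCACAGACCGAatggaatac
Cst11: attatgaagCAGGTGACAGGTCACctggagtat
Cst12: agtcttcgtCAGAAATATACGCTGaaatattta
Cst13: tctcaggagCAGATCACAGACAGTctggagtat
Cst9: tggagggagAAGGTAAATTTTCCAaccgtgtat

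Cst3, Cst6 and Cstb held the codons for glutamine, valine and glycine at all 3 fixed positions of the loop. In Cst8, Cst11, Cst12 and Cst13 only the glutamine codon, 1 of 3, was kept, and in Cst9 it was 0 of 3. Nowhere in the coding sequence did any of the 5 reproductive-tract genes hold the complete motif. The place was set by aligning each translated coding sequence to that of Cst3. For Cst12, where the alignment had a gap there, it was set by the first coding exon junction. That junction fell 3 bases into the capitals in Cst3, Cst6, Cst8, Cst9, Cst11 and Cst13, so these stretches are split by an intron in the genome; in Cstb the stretch lies within exon 2. The proline and tryptophan codons of the second hairpin were found at the aligned place in Cst8, Cst9, Cst11 and Cst13, 4 of the 5 reproductive-tract genes. Cst3 and Cst6 held them there too and Cstb did not, so these codons do not separate inhibitory from reproductive-tract members.

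On mm10, from the first to the last base shown and with the intron where there is one, the stretches lie as follows. On chromosome 2 they are chr2:148872910-148875164 on the minus strand for Cst3, chr2:148770467-148771187 on the minus strand for Cst11 and chr2:148789583-148792401 on the plus strand for Cst12. Those of Cst8 (chr2:148800204-148804603), Cst13 (chr2:148823303-148828160) and Cst9 (chr2:148835421-148836694) are on the plus strand. Cst6 (chr19:5348502-5349106) is read from the minus strand and Cstb (chr10:78426987-78427019) from the plus strand. Over the 28 pairs of members the translated sequences were 18.4% to 38.3% identical, the closest pair being Cst8 and Cst13. The longest run of identical bases shared by any pair of the 8 transcripts was 15, so no member is a near-identical copy of another.

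Levels are the deposited FPKM values, which count fragments per kilobase of gene and per unit of library size, and of each pair of values the first is from the library labelled WT. The fragments behind each value were recovered from FPKM and gene length, and totalled 13705193 and 14783728. Trappc9 itself (ENSMUSG00000047921) stood at 9.94 and 12.6 FPKM, which is not a reduction; a value for the whole gene cannot show a deletion or stop that leaves most of the transcript. With 1 library per genotype no difference has a replicate check. The 95% intervals given are exact and account for counting error alone; the spread between animals is not in them, and reads without molecular identifiers are not independent molecules. In bulk RNA, fewer cells of a type and less RNA per cell cannot be told apart.

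Reproductive-tract cystatins ranged from among the most abundant transcripts of these libraries to a few FPKM. Cst11 (ENSMUSG00000036958, chromosome 2, 148768609 to 148771497) was the highest member, at 2052 and 2331 FPKM. It ranked 8th and 9th among 22046 protein-coding genes. Cst8 (ENSMUSG00000027442, chromosome 2, 148798785 to 148805595) stood at 292 and 617 FPKM, which placed it at ranks 104 and 54.

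Cst12 (ENSMUSG00000027443, chromosome 2, 148789361 to 148793546) stood at 13.6 and 393 FPKM, from 126 and 3684 fragments, and ranked 3807 and 94. The testis genes were low in both libraries. Cst9 (ENSMUSG00000027445, chromosome 2, 148835147 to 148838738) was at 8.53 and 2.95 FPKM, from 83 and 29 fragments. Cst13 (ENSMUSG00000036924, chromosome 2, 148820081 to 148830410) was at 4.42 and 3.48 FPKM, from 49 and 39 fragments.

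Of the ubiquitous members, Cst3 (ENSMUSG00000027447, chromosome 2, 148871722 to 148875692) was at 392 and 421 FPKM. Cstb (ENSMUSG00000005054, chromosome 10, 78425669 to 78427622) was at 102 and 120 FPKM. Cst6 (ENSMUSG00000024846, chromosome 19, 5344705 to 5349574) was close to the detection limit, at 0.071 and 0.34 FPKM from 4 and 19 fragments; a count of 0 would allow up to 3 fragments, or 0.054 FPKM at its length.

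The order of levels therefore differed between the libraries. In the library labelled WT it ran Cst11, Cst3, Cst8, Cstb, Cst12, Cst9, Cst13 and Cst6. In the library labelled KO it ran Cst11, Cst8, Cst3, Cst12, Cstb, Cst13, Cst9 and Cst6. Neighbours in these orders were at least 1.34 times apart in the library labelled WT. In the library labelled KO, Cst3 and Cst12 were 1.07 times apart and Cst13 and Cst9 1.18 times. The counting interval of Cst13 there, 2.48 to 4.76 FPKM, overlapped that of Cst9, 1.98 to 4.24 FPKM. The interval of Cst12, 381 to 406 FPKM, ended below that of Cst3, 412 to 431 FPKM. With the length of the first coding transcript in GENCODE M21 in place of the table's gene length (for Cst3 860 bases in place of 1266), both orders were the same. In the library labelled KO, Cst8 and Cst3 were then 1.11 times apart and Cst3 and Cst12 1.31 times.

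**Figure D1:**
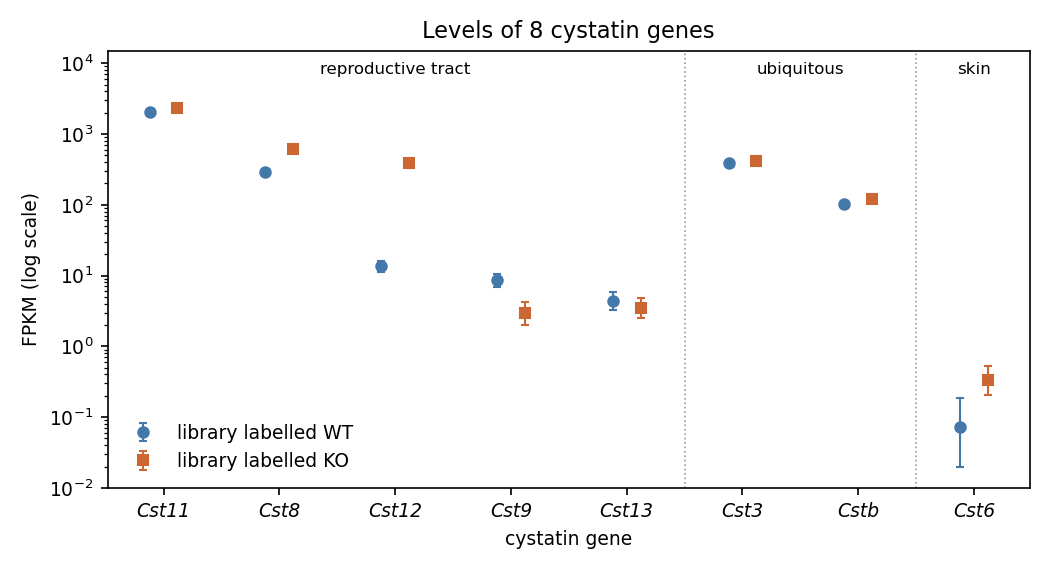
FPKM on a log scale for each of the 8 cystatin genes in the libraries labelled WT (circles) and KO (squares), 1 library each; bars are exact 95% Poisson intervals for counting error. Cst12 stands near Cst9 in the former (13.6 and 8.53 FPKM) and near Cst3 in the latter (393 and 421 FPKM).

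Cst12 and Cst8 were higher in the library labelled KO and Cst9 was lower, each by at least 2-fold, and the ubiquitous pair differed little. The 2-fold threshold is a log2((KO + 1)/(WT + 1)) of 1 in either direction, with 1 FPKM added to each value, which understates changes of low genes. Of the 8 members, 2 were at least 2-fold higher and 1 lower. Of the 13084 protein-coding genes whose mean reached 1 FPKM, 0.948% passed the threshold upwards and 0.29% downwards. Since the members were chosen for their levels in these libraries, nothing is read from the members' count against these shares. All members but Cst6, 7 of the 8, had a mean of at least 1 FPKM. The median log2 ratio of the 8 was 0.21, and that of the 13084 genes was 0.02.

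Cst12 had a log2 ratio of 4.76 and an FPKM ratio of 29.0, with a counting interval of 24.2 to 34.9. This was the highest log2 ratio among the 13084 genes, the contrast by which the gene was picked. For Cst8 the log2 ratio was 1.08 and the FPKM ratio 2.11 (2.03 to 2.20), just inside the 2-fold threshold. Another 3 scalings of the libraries lower every FPKM ratio, KO over WT, by a common factor. After any of them the log2 ratio of Cst8 was 0.88 to 0.98 and only Cst12 remained at least 2-fold higher. Cst9 had a log2 ratio of −1.27 and an FPKM ratio of 0.35 (0.22 to 0.53). With a pseudocount of 5 FPKM its log2 ratio was −0.77, and 0 members were then at least 2-fold lower.

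Among the members outside the threshold, Cst6 had the largest ratio of FPKM, 4.70, but its 4 and 19 fragments gave an interval of 1.56 to 19.0, and its log2 ratio with the pseudocount was 0.32. With a pseudocount of 0.1 FPKM that was 1.35, and 3 members were then at least 2-fold higher. Cst13 was at 0.79 (0.50 to 1.23), an interval that includes no change. Cst11 was at 1.14 (1.11 to 1.16), Cstb at 1.18 (1.07 to 1.29) and Cst3 at 1.07 (1.04 to 1.11). Rescaled to TPM, where the libraries are set to an equal sum, the log2 ratios of Cst11 and Cst3 were −0.02 and −0.10, so their direction depends on the scaling. That rescaling moved the median of all 13084 genes to −0.17, and relative to it both genes were on the higher side. By the counting interval, 6 of the 8 members were higher and 1 lower in the library labelled KO, where 24.6% and 17.6% of the 13084 genes were. The 6 include Cst6, whose mean was below the 1 FPKM that the 13084 genes reached. They also include Cst11 and Cst3, whose direction depends on the scaling. As for the 2-fold count, nothing is read from this count against these shares.

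**Figure D2:**
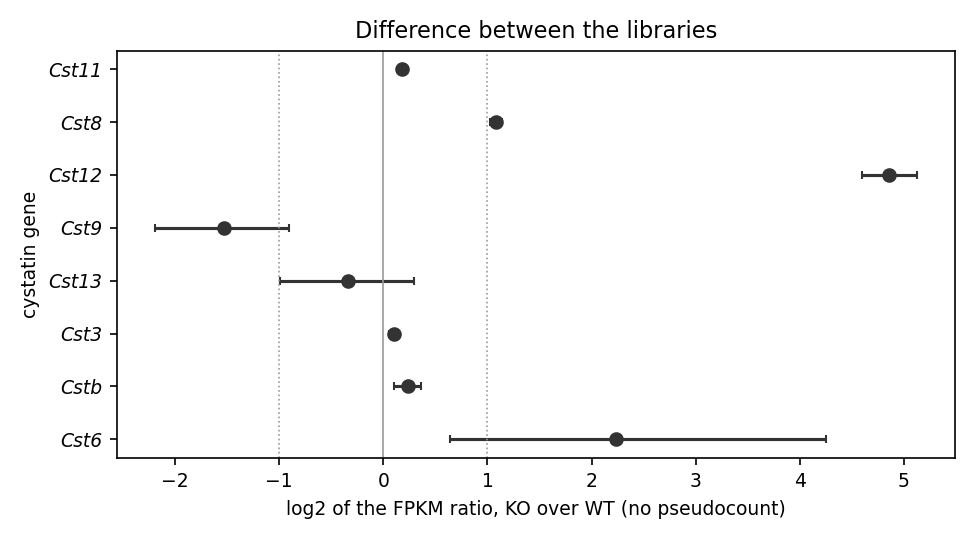
Log2 of the FPKM ratio, KO over WT, without a pseudocount, for each cystatin gene; bars are exact 95% Clopper-Pearson intervals for counting error and dotted lines mark 2-fold. Cst12 lies far to the right at a ratio of 29.0, Cst9 to the left at 0.35, and Cst11, Cst3 and Cstb lie close to 0.

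Ratios between genes within 1 library do not depend on how libraries are scaled. For every 100 FPKM of Cst11 there were 0.66 and 16.9 FPKM of Cst12. For Cst8 the same measure was 14.2 and 26.5. For Cst9 it was 0.42 and 0.13. The ubiquitous pair kept closer to Cst11, with Cst3 at 19.1 and 18.1 and Cstb at 4.99 and 5.17 per 100 FPKM of Cst11. The reproductive-tract genes thus differed unequally among themselves, by this measure as by the ratios above.

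Of the 8 genes, 6 lie in 1 cluster on chromosome 2 with 3 further cystatin-like genes, and the ratios of the 6 ran from 0.35 for Cst9 to 29.0 for Cst12. From Cstl1 to Cst3 it spans 148750358 to 148875692 on mm10, or 125 kb, and holds 9 genes, none of which overlaps another. Cst12 and Cst8 are adjacent, on the same strand and 5238 bases apart, at ratios of 29.0 and 2.11. On the other side of Cst12, 3423 bases away, 8030411F24Rik (Cstdc1 in RefSeq) was at 1.29 and 1.97 FPKM, from 11 and 17 fragments, a ratio of 1.53 (0.68 to 3.61). Cst13 and Cst9, next after Cst8 and on the same strand, were at 0.79 and 0.35.

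Further along, 9230104L09Rik (Cstdc2 in RefSeq) was at 1090 and 1620 FPKM, a ratio of 1.49 (1.45 to 1.52). It was the second most abundant gene of the cluster after Cst11, and stands between Cst9, the lowest by ratio, and Cst3. Cstl1, at the other end, was at 0.59 and 0.68 FPKM from 6 and 7 fragments. Beyond the cluster, Napb, a vesicle fusion gene next to Cstl1, was at 0.92 and 0.93 FPKM. On the side of Cst3 the next 7 genes were at or near 0, and Cst10, known from cartilage, had 0 fragments in both libraries, which allows up to 0.25 FPKM.

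**Figure D3:**
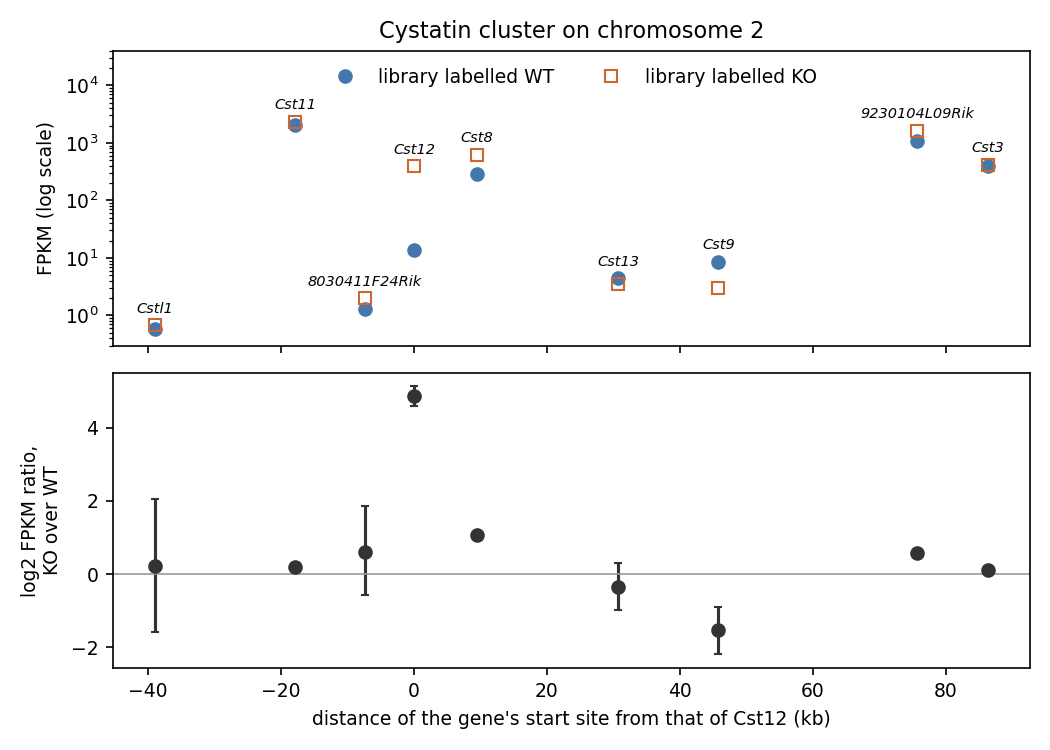
FPKM on a log scale (top) and log2 FPKM ratio, KO over WT, with 95% counting intervals (bottom) for the 9 genes of the chromosome 2 cluster, against the distance in kb of each gene's start site from that of Cst12. Levels of some neighbouring genes differ by orders of magnitude, while others are close, such as Cst12 and Cst8 in the library labelled KO (393 and 617 FPKM). Cst12 stands alone at the top of the lower panel.

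The sequences before Cst12 and Cst8 are shown because these adjacent genes were both at least 2-fold higher. They are RefSeq promoter windows on GRCm38.p6, kept up to the earliest annotated start: 246 bases at chr2:148789115-148789360 and 196 bases at chr2:148798589-148798784, both on the plus strand. Capitals mark matches to any of 4 motifs searched on both strands.
Cst12: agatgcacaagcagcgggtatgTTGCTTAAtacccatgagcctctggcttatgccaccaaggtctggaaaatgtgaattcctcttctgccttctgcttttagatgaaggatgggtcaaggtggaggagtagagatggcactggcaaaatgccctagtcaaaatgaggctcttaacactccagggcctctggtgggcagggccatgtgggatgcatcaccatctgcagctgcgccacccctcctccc
Cst8: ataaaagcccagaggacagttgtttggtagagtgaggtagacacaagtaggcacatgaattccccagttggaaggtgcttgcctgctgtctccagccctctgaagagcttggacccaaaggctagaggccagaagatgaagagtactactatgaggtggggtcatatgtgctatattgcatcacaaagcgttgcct

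Of all 32851 promoter windows of 300 bases, 19.0% held AGAACA, the core of the androgen receptor motif. AGGAAG, a motif of ETS factors, was in 35.4%. TATAAA, the TATA box, was in 13.6%, and TTGCNNAA, like the motif of C/EBP factors, in 10.8%. The printed sequences hold 1 match in all, so no matches overlap in them. The 300-base window of Cst12 held 1 match, to TTGCNNAA, starting 228 bases before the RefSeq start, and that of Cst8 held none of the 4. Windows were found for 5 of the 8 members. That of Cst3 held AGAACA at 2 places and AGGAAG at 1, that of Cst9 held AGGAAG once and that of Cst13 held TATAAA once. A match describes the letters and is no evidence of a site.

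Summed over genes, reproductive-tract cystatins outweighed the ubiquitous pair in both libraries, and more so in the library labelled KO. Cst8, Cst9, Cst11, Cst12 and Cst13 summed to 2370 and 3347 FPKM, against 494 and 541 FPKM for Cst3 and Cstb. The first sum was 4.79 and 6.18 times the second. With the length of the first coding transcript in place of the table's gene length, a choice made after the values were seen, these were 3.54 and 4.72 times. Without Cst11 the reproductive-tract sum was 318 and 1017 FPKM, and without Cst12 it was 2357 and 2954 FPKM.

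The make-up of the reproductive-tract sum differed between the libraries. Cst11 made up 86.6% of it in the library labelled WT and 69.6% in that labelled KO, Cst8 12.3% and 18.4%, and Cst12 0.57% and 11.7%. Of the 977 FPKM by which the deposited sums differed, Cst12 contributed 380 FPKM, Cst8 325 FPKM and Cst11 279 FPKM. The part of Cst11 depends on the scaling: rescaled to TPM, the sums differed by 1697 TPM, of which Cst12 contributed 1033 TPM, Cst8 769 TPM and Cst11 −82.2 TPM. All 8 members together took 0.216% and 0.274% of the fragments of their libraries.

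**Figure D4:**
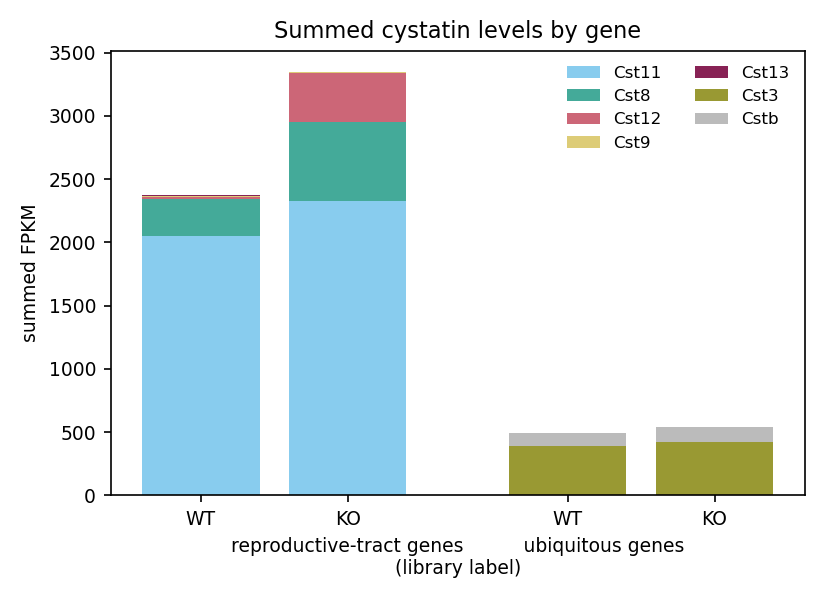
Summed FPKM of the 5 reproductive-tract cystatins (left pair of bars) and of Cst3 and Cstb (right pair) in each library, split by gene. Cst9 and Cst13 are too low to be seen; Cst12 is a visible part of the sum only in the library labelled KO (11.7%).

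Other genes of the cystatin superfamily were mostly at or near 0. The list of 28 symbols matched 21 genes of the table, of which 12 had 0 fragments in both libraries, among them Cst10, Hrg and all the stefin A genes (Stfa1, Stfa2, Stfa3, Csta1 and their relatives). A count of 0 allows up to 0.72 FPKM for the shortest of these. A mean of at least 1 FPKM was reached by 3. By the 2-fold threshold 1 of these was higher and 0 lower, where 1.79% and 1.01% of all 15447 genes with such a mean were. The higher one was Fetub, fetuin-B, a secreted inhibitor of the egg protease ovastacin, at 1.12 and 5.13 FPKM with a ratio of 4.60 (3.10 to 7.02). 9230104L09Rik and 8030411F24Rik, described above, were the other two. Cst7, or leukocystatin, of immune cells, had 2 and 5 fragments, and the kininogen gene Kng2 had 20 and 14.

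The proteases that inhibitory cystatins act on were present in both libraries at similar levels. None of the 11 genes of papain-like cathepsins and legumain reached 2-fold in either direction. Of all 15447 genes, 1.79% were at least 2-fold higher and 1.01% lower. These shares are small, so nothing is read from the absence of such genes among the 11. The median log2 ratio of the 11 was −0.04, against 0.02 for all 15447 genes. By the counting interval 3 were higher and 3 lower, where 22.9% and 16.1% of all genes were. Higher were Ctss, a cathepsin of antigen-presenting cells, at 22.4 and 29.2 FPKM, Ctsl at 57.9 and 72.1 FPKM and Ctsb at 80.2 and 83.1 FPKM. Lower were Ctsh, an aminopeptidase, at 46.8 and 40.6 FPKM, Ctsz at 30.4 and 26.2 FPKM and Ctso at 9.92 and 8.84 FPKM.

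Intervals of the other 5 proteases included no change. Legumain (Lgmn), an asparagine-specific protease that Cst3 and Cst6 proteins also inhibit, was at 47.9 and 46.9 FPKM. Ctsf was at 26.8 and 24.2 FPKM, and Ctsk, known from osteoclasts, at 15.5 and 16.1 FPKM. Ctsc, which activates granule proteases, was at 9.92 and 9.65 FPKM, and Ctsw, of cytotoxic lymphocytes, at 2.06 and 1.59 FPKM. Together the 11 genes summed to 350 and 359 FPKM. Cst3 and Cstb together were 1.41 and 1.51 times these sums, a ratio of transcript levels and not of active proteins. It rests on the table's gene lengths, which are 6051 bases for Ctsb and 6489 for Ctsl, against 1266 for Cst3. By fragments Ctsb had 6870 and 7195, close to the 7029 and 7624 of Cst3. Lengths of coding transcripts were not applied to the proteases.

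**Figure D5:**
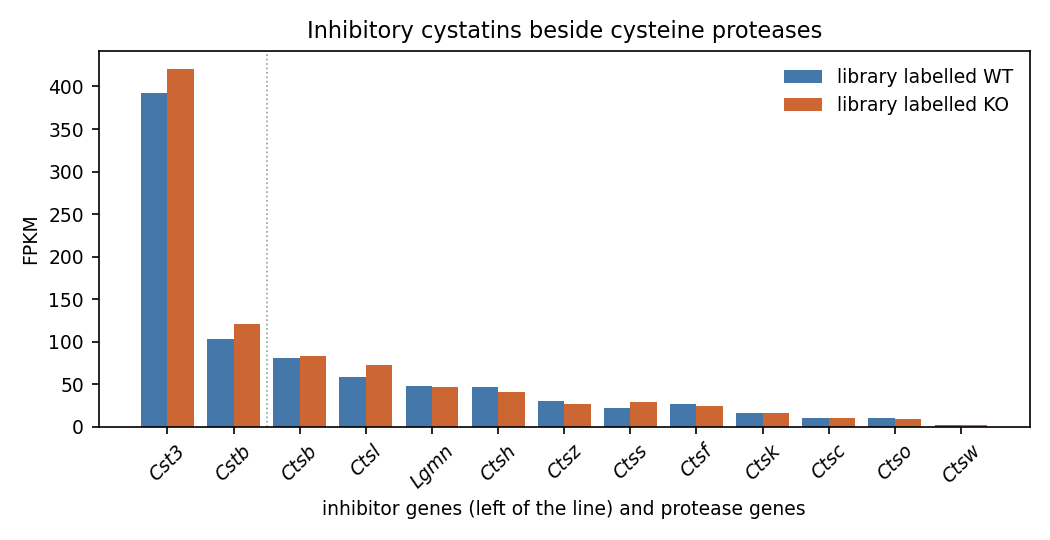
FPKM of Cst3 and Cstb (left of the dotted line) and of 11 cysteine protease genes in each library, 1 library per genotype. By FPKM at the table's gene lengths, Cst3, at 392 and 421 FPKM, stands above every protease, the highest being Ctsb at 80.2 and 83.1 FPKM. By fragments Ctsb is close to Cst3.

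Most markers of epididymis and of spermatids differed in the direction of Cst12 and Cst8, towards the library labelled KO, and their values are set beside these genes. The epididymal epithelium list (15 of 16 symbols in the table) summed to 21733 and 29629 FPKM. Of its 15 genes, 4 were at least 2-fold higher and 0 lower, and by the counting interval 13 were higher and 1 lower. Of all 15447 genes 1.79% and 1.01% passed 2-fold, and 22.9% and 16.1% the counting interval. Abundant genes have narrow counting intervals, and the median level of the 15447 genes was only 6.13 and 6.26 FPKM. The counting-interval shares are therefore not like for like. The median log2 ratio of the list was 0.51, and 0.31 after rescaling to TPM. The 4 with the highest mean of the 2 libraries were Gpx5 (10039 and 11686 FPKM), Lcn8 (3719 and 4750 FPKM), Lcn5 (1284 and 2667 FPKM) and Spag11b (1470 and 2031 FPKM). The ratio of Cst8, 2.11, lay within the range of this list, from 0.70 for Lcn6 to 3.33 for Lcn9. The ratio of Cst12, 29.0, lay outside it. None of the 15 was at 0. The part of epididymal cells in the cystatin differences was not tested.

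Spermatid genes summed to 43.7 and 195 FPKM. Of the 10, 8 were at least 2-fold higher, with ratios from 2.28 for Tnp2 to 10.4 for Prm2, a protamine that packs sperm DNA, where 1.79% of all 15447 genes were. Of the 10, 9 had a mean of at least 1 FPKM, the exception being Acrv1 at 0.43 and 0.19 FPKM. Prm1, also a protamine, was at 9.27 and 32.6 FPKM, and Smcp at 4.33 and 31.9 FPKM. Cst8 is known from spermatids as well as from epididymis; the part of these cells in its difference was not tested.

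For the testis genes Cst9 and Cst13, Sertoli cell markers summed to 77.8 and 70.1 FPKM. That sum was mainly Sox9, Inha and Cldn11, which other cell types share. Of the defining markers, Rhox5 was at 0 and 5 fragments, Dmrt1 at 1 and 0 and Fshr at 3 and 0. Amh had 17 and 7 fragments, Dhh 16 and 9 and Gata1 10 and 4. Aard had 78 and 74 fragments, and Wt1, which is also on the mesothelial list, had 328 and 201. Meiotic spermatocyte genes summed to 11.6 and 6.38 FPKM, with Piwil1 at 2.72 and 1.19 FPKM and Tex101 at 1.79 and 0.63 FPKM. Only 4 of the 10 had a mean of at least 1 FPKM, and of these 2 were lower and 1 higher by the counting interval, where 16.1% and 22.9% of all 15447 genes were. Leydig cell markers summed to 10.1 and 13.9 FPKM, with Cyp17a1 at 5.54 and 10.1 FPKM. Star was at 2.27 and 2.06 FPKM and Insl3 at 1.81 and 1.68 FPKM, with counting intervals that include no change. Hsd3b1 had 5 and 0 fragments and Hsd17b3 6 and 0, both close to the detection limit. The part of these cell types in the lower Cst9 value was not tested.

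Among the lists for cell types of adipose tissue, marker levels were low for mature adipocytes and higher for progenitors, which the titles name. Which cells these transcripts came from was not tested. Mature adipocyte markers summed to 12.4 and 7.56 FPKM. Cfd was at 5.82 and 4.17 FPKM and Cidec at 1.33 and 1.47 FPKM, with counting intervals that include no change. Adipoq, the adiponectin gene, was at 2.30 and 0.51 FPKM, Plin1 at 1.87 and 1.11 FPKM and Retn at 1.03 and 0.22 FPKM. Lep had 3 and 4 fragments. Adipose progenitor markers summed to 200.2 and 175 FPKM, with Ly6a at 67.5 and 78.9 FPKM, Cd34 at 52.6 and 27.4 FPKM and Pdgfra at 34.2 and 30.7 FPKM. Macrophage markers, beside which Cst3 and Ctss are set because macrophages express both, summed to 253 and 250 FPKM, with Lyz2 at 91.0 and 98.9 FPKM and C1qa at 46.8 and 46.7 FPKM. By the counting interval 1 of the 8 was higher, Lyz2, and 2 were lower, C1qb (50.3 and 42.2 FPKM) and Mrc1 (10.6 and 7.87 FPKM). Of all 15447 genes 22.9% were higher and 16.1% lower by that interval. Markers of stratified epithelium, to which skin and its Cst6 belong, summed to 128 and 116 FPKM, led by Krt5 (49.1 and 43.1 FPKM) and Krt14 (41.3 and 38.1 FPKM), and of the skin differentiation genes Ivl was at 0 in both, Lor at 3.25 and 4.36 FPKM and Krt10 at 3.21 and 3.24 FPKM. Mesothelial markers summed to 62.6 and 52.4 FPKM, with Upk1b at 14.8 and 25.3 FPKM and Upk3b at 23.0 and 10.8 FPKM. By the counting interval 4 of the 5 were lower and only Upk1b was higher, where 16.1% and 22.9% of all 15447 genes were.

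The protein-coding genes nearest to a cystatin over the pair of libraries were found by distance on the log2(FPKM + 1) scale, a measure over 2 values only. Nearest to Cst12 were Epp13 (22.3 and 258 FPKM, distance 0.91) and the beta-defensin genes Defb22 (12.1 and 123 FPKM, 1.67) and Defb30 (39.6 and 204 FPKM, 1.75). Nearest to Cst8 were Actg2, a smooth muscle actin (259 and 498 FPKM, 0.35), Ly6g5b (375 and 698 FPKM, 0.40) and D730048I06Rik (371 and 506 FPKM, 0.45). Nearest to Cst9 were Pdcl2 (8.64 and 2.99 FPKM, 0.02), the spindle gene Tpx2 (8.03 and 3.39 FPKM, 0.17) and the angiotensin receptor gene Agtr2 (7.79 and 3.32 FPKM, 0.17).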

How the data were processed

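The authors deposited 1 table with 1 FPKM value per gene and library (1 WT, 1 KO), with gene length, position and biotype, per the file headers; HISAT2 2.0.5, with mm10 and hg38 as builds, is named per the submitters' processing notes. For the counting program, the name was not given in the sources used. All 8 member positions equalled those of GENCODE M21. FPKM multiplied by gene length gave whole fragments, within 0.01 of a fragment, for 100% of the values above 0; 1 fragment on 1 kb was worth 0.0706 FPKM (WT) and 0.0699 FPKM (KO).

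With 1 library per genotype no p-value was computed. Differences are log2((KO + 1)/(WT + 1)), and FPKM ratios carry exact 95% Clopper-Pearson intervals. Genes entered counts over all genes at a mean of at least 1 FPKM. The steps were tested on simulated data. Named genes were all members, measured superfamily genes, all listed proteases, the most abundant markers, cluster neighbours and nearest genes; others were named after their values were seen. Members and lists were chosen with earlier results of these data known. Listed symbols missing from the table were matched through RefSeq synonyms. Sequences came from RefSeq and GENCODE M21, aligned with Biopython 1.88; Python 3.11.15 and SciPy 1.17.1 were used. Alternatives were other pseudocounts, 3 scalings, no filter and sums without the most abundant gene.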

Additional observations from a re-analysis of the deposited data

How the results depend on the processing

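No paired analysis was possible because each genotype has 1 library, and no library could be left out. Cst12 kept a log2 ratio of 4.42 (pseudocount of 5 FPKM) to 4.85, and Cst9 of −1.62 to −0.77, so with a pseudocount of 5 FPKM 0 members were at least 2-fold lower. With a pseudocount of 0.1 FPKM 3 members were at least 2-fold higher, Cst6 (1.35) being the third. Cst8 was at 0.88 after rescaling to TPM, 0.98 after scaling to the total of recovered fragments and 0.97 with equal sums without the 100 most abundant genes, and under each of these 1 member was at least 2-fold higher in place of 2. These scalings multiply the library labelled KO relative to the library labelled WT by 0.869, 0.936 and 0.930. The pseudocount stayed at 1 in the rescaled units. Rescaling to TPM multiplied the values by 3.15 (WT) and 2.74 (KO), so the pseudocount weighed less there. The log2 ratio of Cst6 then rose from 0.32 to 0.65, and the −1.62 of Cst9 is also from that setting. The 3 scalings gave log2 ratios of 0.30, 0.40 and 0.39 for the summed reproductive-tract genes, against 0.50 as deposited. For Cst3 with Cstb they gave −0.071, 0.036 and 0.026, against 0.13. Without Cst11 the log2 ratio of the reproductive-tract sum was 1.67, and Cstb alone was at 0.23. With the length of the first coding transcript, chosen after seeing the data, the reproductive-tract sum was 3.54 (WT) and 4.72 (KO) times that of Cst3 with Cstb, against 4.79 and 6.18. Direction reversed for Cst11 after rescaling to TPM (−0.018) and for Cst3 after rescaling to TPM (−0.10) and with equal sums (−0.0019). Counts of superfamily and protease genes past 2-fold were the same under every alternative run. Median log2 ratios of the 10 marker lists kept their sign after rescaling to TPM and without the filter. Depth limits Cst6, Cst7, Cst13 and 8030411F24Rik, and the animal-to-animal spread is not known for any gene.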
